A study of Mus musculus with 18 samples.

Results

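The genes described here encode the enzymes that couple foreign compounds, drugs and hormones to a water-soluble group before they leave the body in urine or bile. They were chosen by gene name, as all genes of the uridine diphosphate glucuronosyltransferases (Ugt1, Ugt2 and Ugt3), the glutathione S-transferases (Gsta, Gstk, Gstm, Gsto, Gstp, Gstt, Gstz and the membrane-bound Mgst) and the sulfotransferases (Sult). The names matched 56 genes, and without the pseudogene Gstm2-ps1 there were 55 of the 32675 genes measured. Of these, 46 passed a filter on low counts and were tested, among 20251 genes in all.

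RNA of the right kidney was sequenced in 18 wild-type male C57BL/6 mice, labelled as 6 weeks of age, with 6 mice in each of 3 groups. Mice of the Ctrl group were handled daily and not defeated. Mice of the PBS group underwent chronic social defeat stress (CSDS), in which they met an aggressive CD-1 male each day, and were injected daily with phosphate-buffered saline. No injection is described for the Ctrl group, so that stress and injection cannot be told apart between PBS and Ctrl. The FLX group met the same stress and received fluoxetine, a serotonin reuptake inhibitor, in place of saline. Total estimated counts per mouse were 48928823 to 52073640 in FLX replicates 3 to 6 and 72149987 to 79061296 in the other 14 mice. The study left out 1 PBS mouse without naming it, and PBS replicate 6 was left out here, so that values are given for 5 PBS mice unless all 6 are named. Of the 46 genes, 29 (63.0%) lay outside the range of the other 17 mice in PBS replicate 6, against 29.2% of all genes tested.

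Glucuronosyltransferases sit in the endoplasmic reticulum and transfer glucuronic acid from UDP-glucuronic acid to bilirubin, steroids, phenols and many drugs. Glutathione S-transferases join glutathione to reactive electrophiles, and the products are trimmed to mercapturates, largely at the brush border of the kidney. Sulfotransferases move sulfate from the donor PAPS to phenols, catecholamines and steroids. The Ugt1a genes are unusual in that each has a promoter and a first exon of its own, while the remaining exons are common to all of them.

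Because the Ugt1a genes differ in their first exon and its promoter, the windows around their start sites are shown. Ugt1a10 was higher in the PBS group, the call of Ugt1a9 rested on PBS replicate 4, and Ugt1a7c was not called. Each window holds 300 bases, 250 of them before the start, from RefSeq on GRCm38.p6, read 5′ to 3′ on the strand of the gene. Capitals mark the longest run of bases that Ugt1a10 and Ugt1a9 share, and elsewhere GCGTG on either strand, the core of the response element of the aryl hydrocarbon receptor. Gsta2, Sult1d1 and Sult1a1 are added as genes outside the Ugt1a locus that were higher in the PBS group.
Ugt1a10, chr1:88055161-88055460, plus strand: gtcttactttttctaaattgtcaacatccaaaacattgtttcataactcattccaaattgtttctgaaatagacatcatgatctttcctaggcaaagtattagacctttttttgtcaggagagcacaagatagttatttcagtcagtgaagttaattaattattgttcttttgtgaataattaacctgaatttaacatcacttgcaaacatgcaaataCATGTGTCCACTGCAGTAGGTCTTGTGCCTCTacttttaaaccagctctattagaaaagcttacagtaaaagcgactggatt
Ugt1a9, chr1:88070529-88070828, plus strand: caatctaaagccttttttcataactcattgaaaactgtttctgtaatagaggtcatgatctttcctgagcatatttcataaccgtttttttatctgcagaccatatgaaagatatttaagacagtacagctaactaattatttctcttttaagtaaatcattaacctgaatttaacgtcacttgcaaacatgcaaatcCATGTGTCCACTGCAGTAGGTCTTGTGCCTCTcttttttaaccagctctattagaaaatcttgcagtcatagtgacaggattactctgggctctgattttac
Ugt1a7c, chr1:88094751-88095050, plus strand: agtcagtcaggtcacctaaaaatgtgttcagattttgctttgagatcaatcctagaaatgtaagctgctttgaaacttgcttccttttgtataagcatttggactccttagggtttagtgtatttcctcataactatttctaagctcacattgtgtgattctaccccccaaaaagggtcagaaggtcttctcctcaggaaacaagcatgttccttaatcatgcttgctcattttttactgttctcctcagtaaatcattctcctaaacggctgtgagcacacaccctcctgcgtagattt
Ugt1a6a, chr1:88134559-88134858, plus strand: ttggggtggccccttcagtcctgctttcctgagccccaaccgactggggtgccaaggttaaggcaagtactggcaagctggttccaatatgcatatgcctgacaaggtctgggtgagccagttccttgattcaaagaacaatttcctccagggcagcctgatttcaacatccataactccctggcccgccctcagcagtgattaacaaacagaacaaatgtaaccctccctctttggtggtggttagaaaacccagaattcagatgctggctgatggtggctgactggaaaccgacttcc
Ugt1a2, chr1:88200361-88200660, plus strand: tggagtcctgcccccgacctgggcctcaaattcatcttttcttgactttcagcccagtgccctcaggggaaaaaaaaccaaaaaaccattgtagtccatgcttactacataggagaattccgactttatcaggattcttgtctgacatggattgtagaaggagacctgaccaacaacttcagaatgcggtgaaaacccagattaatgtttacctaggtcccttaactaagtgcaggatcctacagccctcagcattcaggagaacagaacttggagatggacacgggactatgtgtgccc
Gsta2, chr9:78347096-78347395, minus strand: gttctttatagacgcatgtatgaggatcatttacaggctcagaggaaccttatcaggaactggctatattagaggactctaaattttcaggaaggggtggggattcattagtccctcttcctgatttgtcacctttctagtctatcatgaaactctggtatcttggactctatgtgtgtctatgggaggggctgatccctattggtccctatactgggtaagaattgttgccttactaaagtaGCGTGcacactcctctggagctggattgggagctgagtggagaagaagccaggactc
Sult1d1, chr5:87568957-87569256, minus strand: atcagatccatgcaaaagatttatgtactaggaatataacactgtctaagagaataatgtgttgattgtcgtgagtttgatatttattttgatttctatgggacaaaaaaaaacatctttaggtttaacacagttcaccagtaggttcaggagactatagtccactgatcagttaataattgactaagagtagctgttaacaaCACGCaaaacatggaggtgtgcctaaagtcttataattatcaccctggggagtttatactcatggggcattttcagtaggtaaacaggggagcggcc
Sult1a1, chr7:126676369-126676668, minus strand: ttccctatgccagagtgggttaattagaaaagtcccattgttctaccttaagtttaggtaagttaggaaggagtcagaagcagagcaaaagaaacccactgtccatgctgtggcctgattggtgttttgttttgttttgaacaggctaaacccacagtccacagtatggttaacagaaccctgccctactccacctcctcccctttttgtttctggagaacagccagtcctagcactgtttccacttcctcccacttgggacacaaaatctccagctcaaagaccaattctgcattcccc

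The windows of Ugt1a10 and Ugt1a9 shared a run of 32 identical bases, and no other pair of these windows shared a run of more than 11. GCGTG was in the windows of 11 of the 50 members with a window in the table (22.0%), among them Gsta2 and Sult1d1, and in 32.4% of all 32851 windows. The letters TGACNNNGC, the core of the antioxidant response element bound by NRF2, were in none of the windows shown. They were in the windows of 4 members, Gsta3, Gstm5, Gstm7 and Mgst1 (8.00%), and in 12.4% of all windows. A match is a run of letters only, and binding was not measured.

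In undefeated kidneys each of the 3 chemistries had members with high levels, next to members near 0. The sum over the 55 genes was 2715 ± 213 FPKM (read fragments scaled to transcript length and library size; SD, n = 6), and 35 genes had a mean over 1 FPKM. The Gstm genes gave 19.0% of this sum, the Ugt2 genes 18.6% and the Sult1 genes 9.63%, while the Ugt3 genes summed to 489 ± 32.7 FPKM. The highest single genes were Ugt2b38 (391 ± 56.7 FPKM, SD, n = 6), a glucuronosyltransferase, and Ugt3a2 (379 ± 24.0), whose protein prefers other sugars to glucuronic acid. These levels differed by less than their spread. Gstm1 (343 ± 37.0 FPKM), a mu-class transferase, came next, and Sult1d1 (223 ± 27.2), a sulfotransferase of catecholamines and other phenols, was the leading sulfotransferase.

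A second tier held Gsta2 (158 ± 20.0 FPKM, SD, n = 6), Gstp1 (155 ± 27.5), Gstm5 (123 ± 29.0), Mgst3 (111 ± 26.4), Ugt3a1 (110.1 ± 11.2) and Ugt1a7c (105 ± 8.39), and neighbours in this order differed by less than the larger of their SDs, apart from Gstp1 and Gstm5. Ugt2b37 (78.4 ± 19.6 FPKM), Gstt2 (70.3 ± 13.7), Gsta3 (29.6 ± 5.22), Sult1c2 (29.4 ± 2.50) and Mgst1 (29.2 ± 3.77) were among those that followed. Sult2 to Sult6, which include sulfotransferases of steroids, were near 0 in kidney, and their highest members were Sult5a1 (0.293 ± 0.0956 FPKM) and Sult2b1 (0.202 ± 0.133). The 9 genes that did not pass the filter were Gstt4, Sult1c1, Sult2a4, Sult3a2, Sult4a1, Sult6b1, Sult6b2, Ugt1a5 and Ugt2b35.

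**Figure D1:**
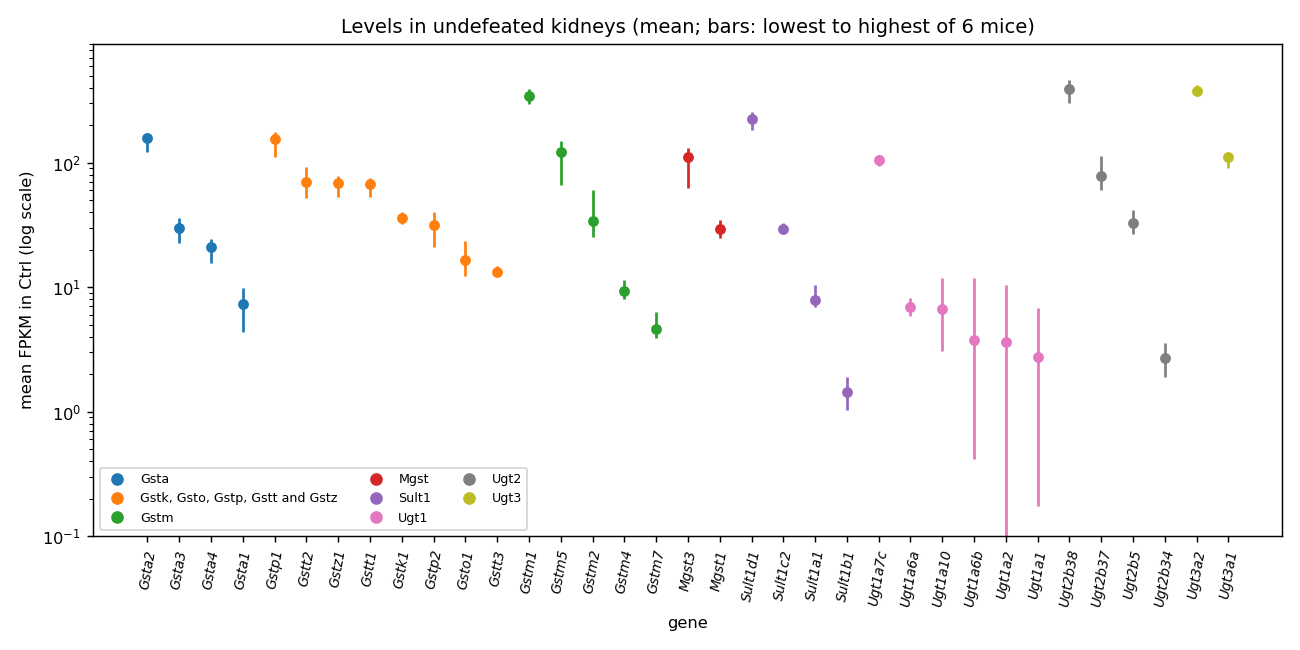
Mean FPKM in the 6 Ctrl mice on a log axis for the 35 conjugating enzyme genes with a mean over 1 FPKM, grouped by family, with bars from the lowest to the highest mouse. Ugt2b38, Ugt3a2, Gstm1 and Sult1d1 stand highest, and Ugt1a1, Ugt1a2 and Ugt1a6b have the widest bars; that of Ugt1a2 reaches 0 and is cut at the lower edge.

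The first comparison, PBS versus Ctrl, asks which of these genes differed in kidneys of stressed mice. Ugt1a10, Ugt1a9, Gsta2, Sult1a1 and Sult1d1 were higher and Gstt2 was lower in the PBS group, so that 6 of 46 members passed (13.0%), against 3.81% of all genes tested (edgeR's quasi-likelihood test, adjusted p under 0.05). The count was 2 without Ctrl replicate 1, 4 or 5, 3 without PBS replicate 1 or 4, and 8 without Ctrl replicate 3. By direction, 5 members were higher (10.9%, background 2.14%) and 1 was lower (2.17%, background 1.67%). With upper-quartile scaling the split was 3 higher and 2 lower, as Gsta2 and Sult1d1 lost their calls and Gstz1, a maleylacetoacetate isomerase, was lower. FPKM of the 2 groups did not overlap for 4 members (8.70%, background 3.52%), Ugt1a10, Ugt1a2, Gsta2 and Gstt2. In whole kidney, fewer cells of a type and less RNA per cell cannot be told apart. The median log2 fold change of the 46 members was 0.24, with 32 above 0 and 14 below, and that of all genes was -0.01. At an unadjusted p under 0.05 there were 14 members (30.4%, background 17.9%). With all 6 PBS mice, 7 of 45 members passed (15.6%, background 4.28%), since Ugt1a6a was added.

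**Figure D2:**
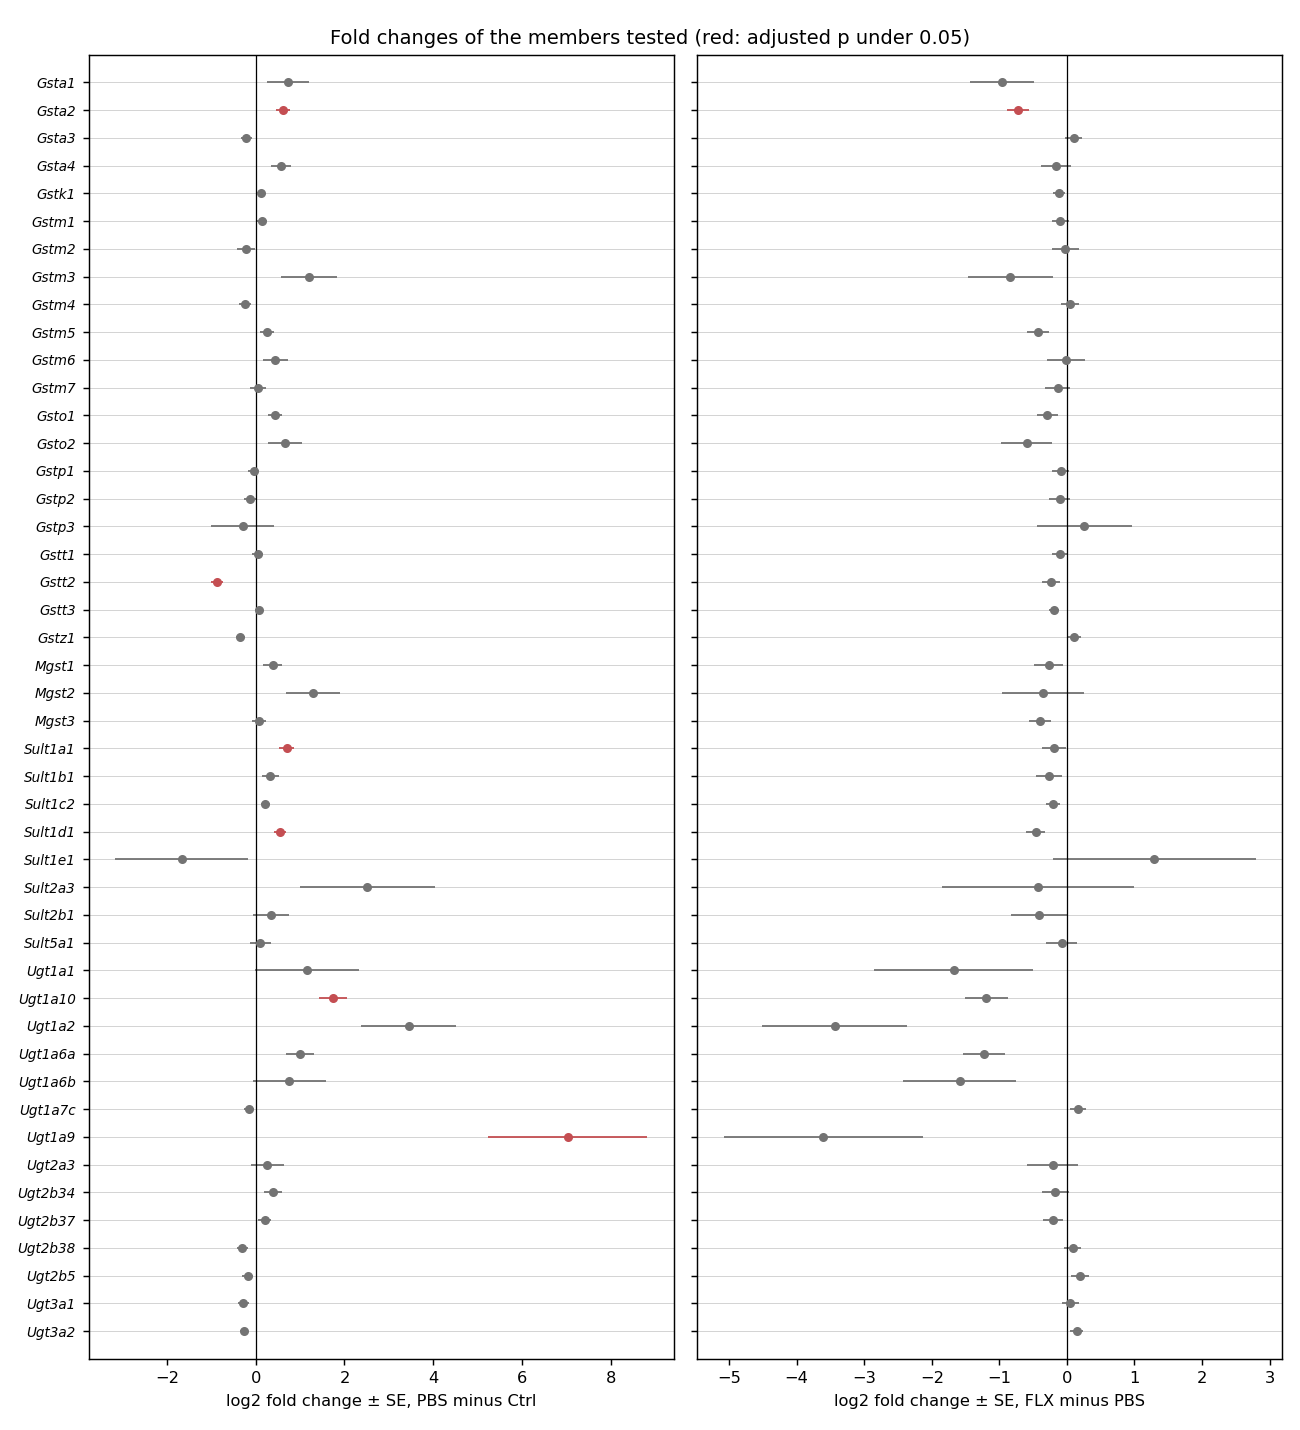
Log2 fold change with its SE for each of the 46 members tested, PBS minus Ctrl on the left and FLX minus PBS on the right, from edgeR over 5 PBS mice; the 2 horizontal axes differ in range. Red marks an adjusted p under 0.05: 6 genes on the left, and Gsta2 on the right. Ugt1a9 and Ugt1a2 lie farthest from 0 on both sides.

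Ugt1a10 (ENSMUSG00000090165, chromosome 1, 88055388 to 88219004), which glucuronidates phenols in tissues outside the liver, was higher in every PBS mouse than in any Ctrl mouse. It was between 3.08 and 11.8 FPKM in the Ctrl group (median 5.57, n = 6), and at 28.2, 23.5, 20.8, 22.2 and 15.3 in PBS replicates 1 to 5. The FLX group spanned 5.47 to 14.2 (median 10.02, n = 6), overlapping the Ctrl group and lying below every PBS mouse. The log2 fold change from Ctrl to PBS was 1.73 (standard error, SE, of 0.32; adjusted p = 0.00453 from edgeR), and it stayed past the threshold whichever mouse was left out (highest adjusted p = 0.0178). PBS replicate 6, at 17.7 FPKM, lay among the other PBS mice.

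Ugt1a2 (ENSMUSG00000090171, chromosome 1, 88200601 to 88218997), with a first exon farther along the same locus, showed the same arrangement of mice with a larger and less precise difference. Ctrl mice had 0 to 10.3 FPKM (median 2.69, n = 6), and the 5 PBS mice had 53.2, 35.4, 26.9, 59.3 and 16.7. FLX mice lay within the range of the Ctrl group, at 0.138 to 8.95 (median 2.31, n = 6). From Ctrl to PBS the difference was 3.45 on the log2 scale (SE 1.07) and did not pass in edgeR (adjusted p = 0.0825). The exact two-sided permutation test on mean log2(FPKM + 0.1) gave p = 0.00649, where the smallest possible value is 0.00216. Ugt1a2 passed in limma on the same scale, one of the alternatives.

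Ugt1a6a (ENSMUSG00000054545, chromosome 1, 88134809 to 88218997), the main glucuronosyltransferase of small planar phenols, was at 5.86 to 8.21 FPKM in the Ctrl group (median 6.77, n = 6). PBS replicates 1 to 5 had 7.56, 14.1, 13.5, 17.8 and 15.9, so that 4 of 5 lay above every Ctrl mouse. FLX mice had 1.59 to 9.94 (median 6.40, n = 6). On the log2 scale the difference from Ctrl was 0.99 over 5 PBS mice (SE 0.31, adjusted p = 0.0835 from edgeR) and 1.10 over all 6 (adjusted p = 0.0443), with 21.0 FPKM in PBS replicate 6.

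Ugt1a9 (ENSMUSG00000090175, chromosome 1, 88070800 to 88218997), a gene whose human counterpart is a main glucuronosyltransferase of kidney, rested on a single mouse of the 5. It was at 0 to 0.0554 FPKM in the Ctrl group (median 0.0369, n = 6), and at 0.280, 0.425, 0.124, 19.3 and 0.0526 in PBS replicates 1 to 5. PBS replicate 4 was thus far above the others, and the left-out replicate 6 had 23.8. FLX mice had 0 to 2.09 (median 0.0384, n = 6). Its log2 fold change of 7.02 (SE 1.79, adjusted p = 0.0335 from edgeR) became 2.78 without PBS replicate 4 (adjusted p = 0.369), and DESeq2 gave no adjusted p.

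Ugt1a7c (ENSMUSG00000090124, chromosome 1, 88095062 to 88220002) was the most abundant gene of the locus and was not called in any comparison. It spanned 93.6 to 114 FPKM in the Ctrl group (median 106, n = 6), and was at 127, 79.3, 89.5, 81.5 and 92.5 in PBS replicates 1 to 5. FLX mice had 94.3 to 125 (median 119, n = 6), and the 3 groups overlapped. The log2 fold change from Ctrl to PBS was -0.16 (SE 0.11, adjusted p = 0.511 from edgeR), with a 95% interval of -0.38 to 0.07.

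The 8 Ugt1a genes share 1311 exonic bases, and between 50.3% and 60.6% of each gene's exonic bases lie in another Ugt1a gene, so the split of counts among them rested on reads of the first exons and on the estimate of the authors' software. In counts scaled to library size (CPM), the 8 genes together were at 609 ± 49.4 in the Ctrl group (SD, n = 6), 751 ± 156 in the PBS group (n = 5) and 607 ± 60.0 in the FLX group (n = 6). Ugt1a7c held 83.2% to 90.8% of these counts in Ctrl mice, 47.5% to 72.2% in the 5 PBS mice and 79.2% to 91.0% in FLX mice, and 55.9% in PBS replicate 6. The PBS mice thus did not overlap either of the other groups in this share. The other 7 genes, summed after their values were seen and so given with no test, were at 50.2 to 94.1 CPM in Ctrl mice, 173 to 476 in the 5 PBS mice and 47.7 to 115 in FLX mice. Fitted as a single row, the 8 genes had a log2 fold change of 0.30 (SE 0.11) from Ctrl to PBS and -0.31 (SE 0.11) from PBS to FLX. This row was not among the calls in either comparison. Ugt1a1, the bilirubin glucuronosyltransferase, and Ugt1a6b varied widely inside every group, with 0.173 to 6.75 FPKM of Ugt1a1 among the Ctrl mice.

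**Figure D3:**
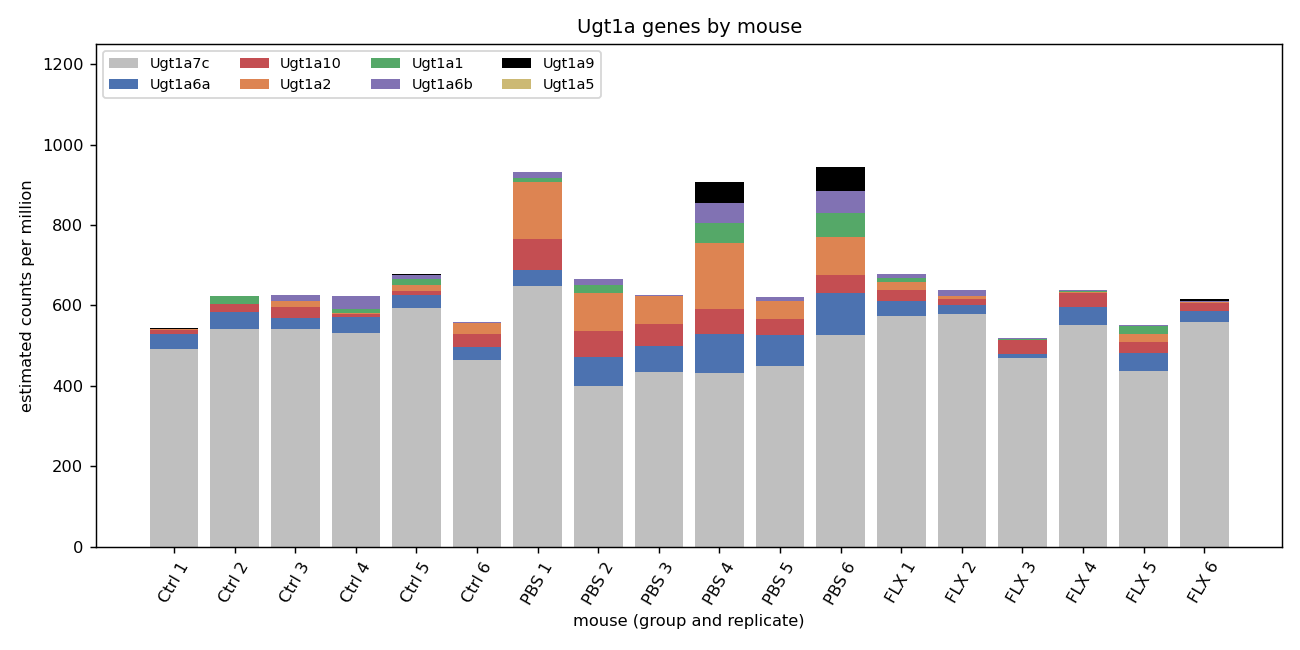
Estimated CPM of the 8 Ugt1a genes, stacked by gene, for each of the 18 mice. The grey part, Ugt1a7c, is 83.2% to 90.8% of the bar in Ctrl mice and 79.2% to 91.0% in FLX mice, and 47.5% to 72.2% in PBS replicates 1 to 5, where the coloured parts are taller.

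Among glutathione S-transferases, Gsta2 (ENSMUSG00000057933, chromosome 9, 78331018 to 78355788), an alpha-class enzyme that also reduces lipid peroxides, was higher in the PBS group. Ctrl mice had 123 to 172 FPKM (median 168, n = 6), and PBS replicates 1 to 5 had 309, 188, 193, 281 and 223. Every PBS mouse lay above every Ctrl mouse, and PBS replicate 6 reached 464. The PBS group was higher by 0.61 on the log2 scale (SE 0.16, adjusted p = 0.0396 from edgeR). The adjusted p exceeded 0.05 when any one of 8 mice was left out, up to 0.136 without PBS replicate 1 and 0.119 without PBS replicate 4. Of the windows of 100 bases in its transcripts, 28.4% also occur in another gene, and 80.6% for its neighbour in sequence Gsta1, which had a log2 fold change of 0.72 (SE 0.47, adjusted p = 0.461) and of 1.41 over all 6 PBS mice (SE 0.55, adjusted p = 0.156).

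Gstt2 (ENSMUSG00000033318, chromosome 10, 75831114 to 75837424), a theta-class transferase with activity towards organic hydroperoxides and sulfate esters, was lower in both stressed groups. It was at 52.1 to 91.9 FPKM in the Ctrl group (median 68.6, n = 6), at 39.5, 35.4, 36.2, 39.3 and 41.1 in PBS replicates 1 to 5 and at 27.4 to 42.8 in the FLX group (median 34.3, n = 6). No mouse of these PBS and FLX groups reached the lowest Ctrl mouse. The left-out PBS replicate 6, at 54.2, lay above Ctrl replicate 3. Gstt2 differed by -0.88 on the log2 scale from Ctrl to PBS (SE 0.14, adjusted p = 0.00167 from edgeR) and -1.11 from Ctrl to FLX (SE 0.13, adjusted p = 0.000336). Both stayed past the threshold whichever mouse was left out (highest adjusted p = 0.00563 and 0.00176).

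The tested genes next to Gstt2 on chromosome 10 were not called, and Gstt4, its nearest neighbour on 1 side, did not pass the filter. Gstt1 had a log2 fold change of 0.05 from Ctrl to PBS (SE 0.12, adjusted p = 0.882 from edgeR) and Gstt3 of 0.06 (SE 0.07, adjusted p = 0.692). Mif, a cytokine gene on the other side, had 0.08 (SE 0.10, adjusted p = 0.739). Derl3, beyond Mif, had 0.86 from Ctrl to PBS (SE 0.37, adjusted p = 0.220) and 0.99 from Ctrl to FLX (SE 0.36, adjusted p = 0.126). Farther on, the matrix metalloproteinase gene Mmp11 (75923222 to 75936496) was lower in the PBS group, at -1.23 (SE 0.25, adjusted p = 0.0103), and so was Gm867, at -1.65 (SE 0.40, adjusted p = 0.0261), while Smarcb1 between them and Gstt2 had 0.08 (SE 0.08, adjusted p = 0.668). From Ctrl to FLX, neither Mmp11 (-0.57, SE 0.23, adjusted p = 0.177 from edgeR) nor Gm867 (-0.92, SE 0.37, adjusted p = 0.164) was called. No window of 100 bases of Gstt2 occurs in another gene.

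The sulfotransferases with a difference were both of the Sult1 group. Sult1d1 (ENSMUSG00000029273, chromosome 5, 87554645 to 87569027) was at 182 to 255 FPKM in the Ctrl group (median 223, n = 6) and at 298, 425, 353, 305 and 246 in PBS replicates 1 to 5. Of the PBS mice, 4 of 5 lay above every Ctrl mouse. FLX mice had 187 to 277 (median 262, n = 6). The log2 fold change from Ctrl to PBS was 0.55 (SE 0.14, adjusted p = 0.0300 from edgeR), with 453 FPKM in PBS replicate 6. The call was lost when any one of 7 mice was left out (highest adjusted p = 0.0784, without PBS replicate 2).

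Sult1a1 (ENSMUSG00000030711, chromosome 7, 126672865 to 126676432), the main phenol sulfotransferase, was at 6.94 to 10.5 FPKM in the Ctrl group (median 7.26, n = 6). PBS replicates 1 to 5 had 12.9, 10.9, 14.2, 8.94 and 17.4, of which 4 lay above every Ctrl mouse. FLX mice had 8.74 to 17.5 (median 11.3, n = 6). Log2 fold changes were 0.70 from Ctrl to PBS (SE 0.17, adjusted p = 0.0286 from edgeR) and 0.51 from Ctrl to FLX (SE 0.17, adjusted p = 0.0910). The first exceeded 0.05 when any one of 6 mice was left out (highest adjusted p = 0.0750, without PBS replicate 5). PBS replicate 5 and FLX replicate 5 had the highest Sult1a1 of the 17 mice compared and also the highest Adipoq, a gene of fat cells, at 87.4 and 102.9 FPKM against at most 23.6 in the others. Without both mice the adjusted p of Sult1a1 was 0.0363, an alternative added after the data were seen.

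**Figure D4:**
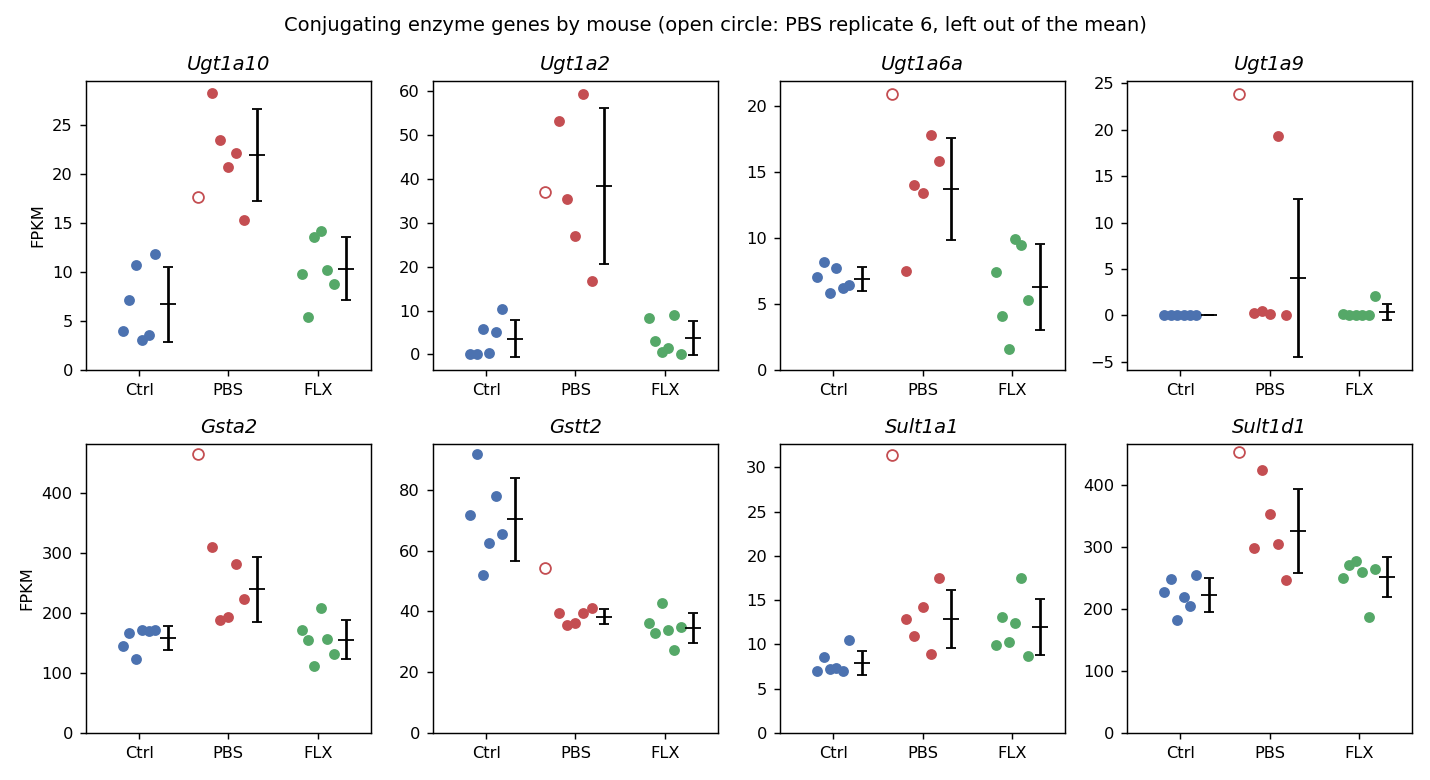
FPKM by mouse for 8 conjugating enzyme genes in the Ctrl, PBS and FLX groups, with the mean and SD to the right of each group and PBS replicate 6 as an open circle outside the mean. Each axis starts at or below 0. PBS mice do not overlap Ctrl mice for Ugt1a10, Ugt1a2, Gsta2 and Gstt2, and 1 filled PBS point, at 19.3, carries Ugt1a9.

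The following members had differences that did not pass. Ugt2b38, Ugt3a2 and Ugt3a1 had log2 fold changes of -0.30, -0.27 and -0.28 from Ctrl to PBS (SE 0.13, 0.09 and 0.13; adjusted p = 0.213, 0.118 and 0.265 from edgeR). Gstm1 had 0.14 (SE 0.12) and Gstm5 had 0.26 (SE 0.16), with overlapping groups. Gstp1, Gsta3, Mgst3, Ugt2b37 and Sult1c2 had values between -0.22 and 0.21. Over all 6 PBS mice Ugt2b38 had -0.47 (SE 0.21), Ugt3a1 -0.43 (SE 0.19) and Gstm1 0.21 (SE 0.13), and the sign turned for Gstp1 (0.08, SE 0.14) and Ugt2b37 (-0.04, SE 0.37), none of them called. Mgst1, a membrane-bound transferase, had 0.38 (SE 0.22) over 5 PBS mice and 1.07 (SE 0.38, adjusted p = 0.115 from edgeR) over all 6. Its highest values among the 17 mice compared, 60.2 and 55.9 FPKM, were those of PBS replicate 5 and FLX replicate 5, the mice with the highest Adipoq. The part of fat tissue in that result was not tested. The low-level Sult2b1 (0.34, SE 0.41) and Sult5a1 (0.10, SE 0.23) were measured too imprecisely to show a difference of that size.

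The second comparison, FLX versus PBS, asks which genes differed with fluoxetine among stressed mice, and it uses the same PBS mice as the first. Gsta2 was lower in the FLX group and was the only member that passed (2.17% of 46, background 0.726%; background 0.557% over all 6 PBS mice, where Gsta2 again was the only one). Its log2 fold change was -0.72 (SE 0.16, adjusted p = 0.0402 from edgeR), from 239 ± 53.6 FPKM (SD, n = 5) to 155 ± 33.0 (SD, n = 6), and 5 of the 6 FLX mice lay under the lowest PBS mouse. The call was lost when any one of 12 mice was left out, up to an adjusted p of 0.134 without PBS replicate 4. Ugt1a10 and Ugt1a2 did not overlap between the groups (4.35% of members, background 2.92%). Ugt1a10 had a log2 fold change of -1.19 (SE 0.31, adjusted p = 0.0909 from edgeR) and Ugt1a2 of -3.44 (SE 1.07, adjusted p = 0.165). With limma on log2(FPKM + 1), Ugt1a2 was the only member called, lower in the FLX group, and Gsta2 did not pass (adjusted p = 0.0633).

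Of the 46 members, 36 had a log2 fold change below 0 from PBS to FLX and 10 above, with a median of -0.20 against -0.003 over all genes. At an unadjusted p under 0.05 there were 9 members (19.6%, background 11.1%). Ugt1a6a had -1.23 (SE 0.31, adjusted p = 0.0794 from edgeR) and Sult1d1 had -0.46 (SE 0.14, adjusted p = 0.146). DESeq2 called 4 members, each lower in the FLX group, namely Gsta2, Sult1d1, Ugt1a10 and Ugt1a6a. The share of all genes that DESeq2 called was not taken, so this count has no background beside it. Sult1a1, at -0.19 (SE 0.17, adjusted p = 0.776) and at -0.48 over all 6 PBS mice (SE 0.23, adjusted p = 0.410), and Gstt2, at -0.24 (SE 0.14, adjusted p = 0.589), were not called.

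In the third comparison, FLX versus Ctrl, Gstt2 alone passed (2.17% of 46, background 3.67%), a share below that of all genes, and it was also the only one over all 6 PBS mice (background 1.77%). At an unadjusted p under 0.05 there were 3 members (6.52%, background 20.4%). The median log2 fold change of the members was -0.03, with 22 above 0 and 24 below. Without Ctrl replicate 3 there were 4 calls, each lower in the FLX group, with Gstm5, Gstz1 and Mgst3 added to Gstt2. Ctrl replicate 3 had the lowest Gstm5 (66.5 FPKM) and Mgst3 (62.3) of the Ctrl group. Ugt1a10 (0.54, SE 0.30) and Sult1d1 (0.09, SE 0.13) lay between 0 and their values in the first comparison, which uses the same Ctrl mice.

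PBS replicate 6 stood apart from the other 17 mice in its conjugating enzymes more than any other mouse did. There 18 members lay above and 11 below the range of the other mice, and the next mouse, Ctrl replicate 3, had 8 members outside, each of them below (17.4%, against 23.2% of all genes). Mgst1 reached 184 FPKM, against at most 60.2 elsewhere. Gsta1 was at 59.2, Gsta4 at 99.0 and Gstp3 at 5.01 FPKM, each above the range of the other mice. In the other direction, Ugt2b37 fell to 6.90 FPKM against 60.0 to 114 in the Ctrl group, Ugt2b38 was at 106 and Ugt3a2 at 169.6. In the same mouse, 8 of 10 genes of the proximal tubule were below the range of the other 17, with Slc7a13 at 6.44 FPKM and Aqp1 at 105, the 5 genes of injured tubule summed to 65.7 FPKM against at most 14.6 in the others, and 7 of 8 neutrophil genes were above the range of the others. Of 9 genes of the mercapturate pathway, which follows the glutathione S-transferases, 7 were below it. Of 12 genes with a male bias in mouse kidney, Slc7a13 included, 9 were below the range of the others. They summed to 5483 FPKM, against at least 19153 in the others. The 4 genes with a female bias summed to 1360 FPKM against at most 211, with 1 above and 1 below the range. The part of these markers in the values was not tested.

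**Figure D5:**
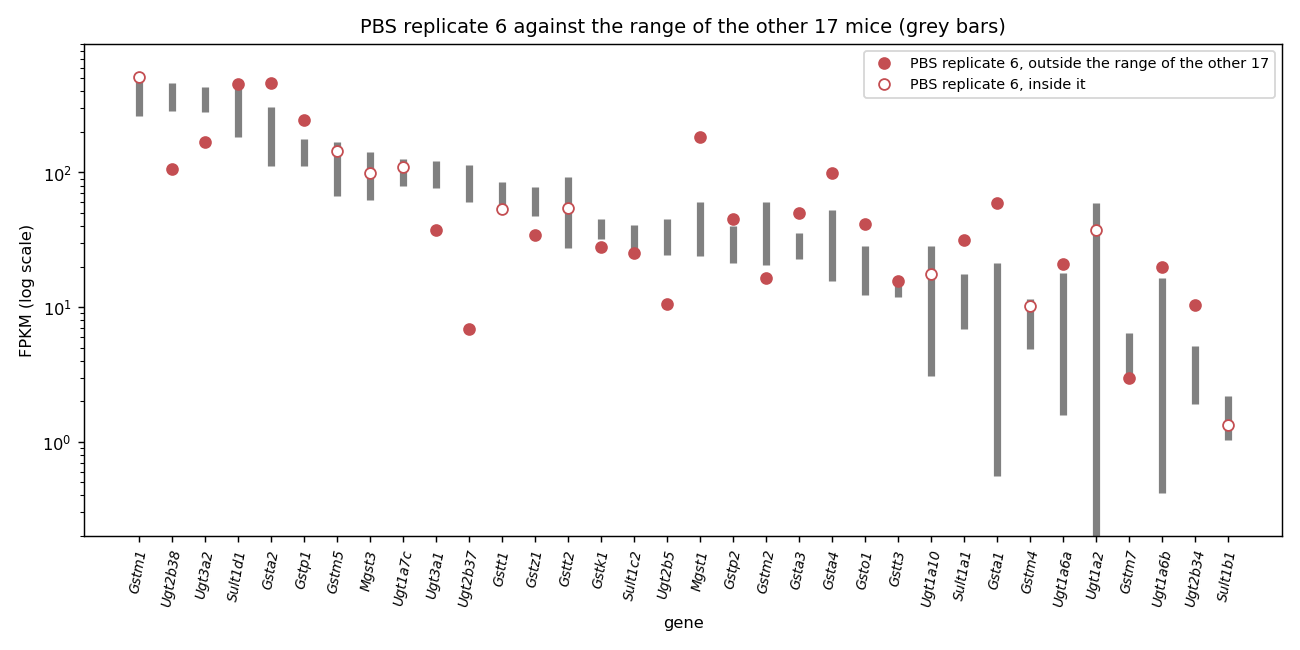
FPKM of PBS replicate 6 (circles) against the range of the other 17 mice (grey bars) on a log axis, for the 34 members tested whose median over those mice was at least 1 FPKM. Filled circles lie outside the bars: 14 above, with Mgst1 and Gsta1 farthest, and 10 below, with Ugt2b37 farthest. The bar of Ugt1a2 reaches 0 and is cut at the lower edge.

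Genes that supply the conjugating groups or handle the conjugates were mostly not called by edgeR, which called 3.81% of all genes from Ctrl to PBS. In that comparison, it called none of 5 genes for UDP-glucuronic acid supply, 8 for glutathione synthesis and recycling, 9 of the mercapturate pathway and 11 of conjugate export and uptake. At an unadjusted p under 0.05 there were 0, 2, 4 and 5 of them, against 17.9% of all genes, a share that all of these lists but the first exceeded. DESeq2 called 0, 1, 3 and 1, and limma on log2(FPKM + 0.1) called 0, 0, 1 and 0, with no share over all genes taken. None of these 4 lists had a call by edgeR in the other comparisons either. At most 3 genes of a list were at an unadjusted p under 0.05 there, against 11.1% of all genes from PBS to FLX and 20.4% from Ctrl to FLX. Among 6 tested genes of PAPS supply and breakdown, Papss2, a PAPS synthase, was lower in the FLX than in the PBS group (log2 fold change -0.71, SE 0.15, adjusted p = 0.0339 from edgeR), from 38.0 ± 7.19 FPKM (SD, n = 5) to 24.8 ± 2.87 (SD, n = 6), but not over all 6 PBS mice (-0.59, adjusted p = 0.134). It was also lower in the FLX than in the Ctrl group (-0.60, SE 0.14, adjusted p = 0.0292), at 35.7 ± 9.14 FPKM (SD, n = 6), and again not with all 6 PBS mice in the model (adjusted p = 0.0843), while the PBS and Ctrl groups differed by 0.11 (SE 0.15). Gusb, the beta-glucuronidase that removes glucuronic acid and the only one of 4 deconjugation genes tested to pass, was lower in the PBS than in the Ctrl group (-0.31, SE 0.07, adjusted p = 0.0244). Of 15 regulators of these enzymes, such as the receptors and factors that bind their promoters, only Maf passed over 5 PBS mice in that comparison (-0.38, SE 0.10, adjusted p = 0.0446 from edgeR). Over all 6 PBS mice Maf did not pass (adjusted p = 0.473), while 1 other regulator did. At an unadjusted p under 0.05 there were 4 of the 15 regulators over 5 PBS mice (background 17.9%), and DESeq2 called 3. From Ctrl to FLX, edgeR called 1 regulator, lower in the FLX group. Of 11 NRF2 targets outside the conjugating enzymes, 1 passed from Ctrl to PBS over 5 PBS mice (background 3.81%) and 4 over all 6 (background 4.28%). The carboxylesterase Ces1g was in both, at -2.88 over 5 mice (SE 0.39, adjusted p = 0.000464 from edgeR). The median of these 11 was 0.21, 7 of them were at an unadjusted p under 0.05 (background 17.9%) and DESeq2 called 3. Over all 6 mice Hmox1 (1.80), G6pdx (0.67) and Srxn1 (0.77) were higher.

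Genes with a sex bias in mouse kidney moved in the same comparisons, and their part in the values of the conjugating enzymes was not tested. Over all genes from Ctrl to PBS, edgeR called 2.14% higher and 1.67% lower, and 17.9% were at an unadjusted p under 0.05. Of 12 male-biased genes, 7 were lower in the PBS than in the Ctrl group (background 1.67%). Among them were Acsm3 (-2.02, SE 0.24, adjusted p = 0.000155 from edgeR) and Slco1a1, an organic anion transporter (-2.74, SE 0.37, adjusted p = 0.000464). Gusb, given above as a deconjugation gene, is also 1 of these 7. Of 4 female-biased genes 3 were higher (background 2.14%), among them the prolactin receptor Prlr (1.60, SE 0.26, adjusted p = 0.00198). From PBS to FLX, 5 of the male-biased genes were higher and 2 of the female-biased genes were lower, against 0.726% of all genes called. Over all 6 PBS mice edgeR called 4 and 0 of them, against 0.557% of all genes. Of 10 markers of the proximal tubule, where many of these enzymes are made, edgeR, DESeq2 and limma called none from Ctrl to PBS, with 1 at an unadjusted p under 0.05. Their summed level was 2452 to 2886 FPKM in Ctrl mice and 2281 to 2665 in the 5 PBS mice. The 7 hepatocyte genes summed to 83.8 to 130.4 FPKM in Ctrl mice, 89.5 to 172 in the 5 PBS mice and 41.9 to 139 in FLX mice, and Cyp3a11 and Cyp2c29 among them were at most 0.0341 FPKM. Of the 4 tested, Serpina1a was higher in the PBS group (1.28, SE 0.31, adjusted p = 0.0265) but not over all 6 PBS mice (1.11, adjusted p = 0.0657), 3 were at an unadjusted p under 0.05, DESeq2 called 2, and their median log2 fold change was 0.50. Of 6 neutrophil genes tested, Ngp, S100a8 and S100a9 were higher in the PBS group, where the summed list was at 6.84 to 25.8 FPKM against 1.20 to 3.23 in the Ctrl group and 0.317 to 5.31 in the FLX group. Of 6 markers of the loop of Henle and distal tubule, Calb1 was higher (0.95, SE 0.17, adjusted p = 0.00354), and of 5 brown fat genes Elovl3 was higher (5.98, SE 1.38, adjusted p = 0.0208). The part of these cells in the values of the conjugating enzymes was not tested. White fat, injured tubule and adrenal cortex, with 5, 5 and 2 genes tested, had no call by edgeR, DESeq2 or limma in that comparison, and 2 genes each at an unadjusted p under 0.05.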

How the data were processed

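Total RNA of 18 right kidneys was sequenced after poly(A) selection. The deposited table gives FPKM and estimated counts per gene and mouse, both made by the authors. Per the labels, cutadapt 1.9, HISAT2 2.0.4, UMI-tools and StringTie 1.3.4d were used; the study's methods name fastp, HISAT-3N and StringTie on GRCm38. Which tool produced these counts is not stated in the sources used here. Gene coordinates equal those of GENCODE vM21 for 28514 of 32562 genes.

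Groups followed the labels. Estimated counts, rounded to whole numbers where needed, were fitted in a single edgeR model of 3 groups (edgeR 4.0.16, R 4.3.3, TMM scaling, filterByExpr, quasi-likelihood test), with Benjamini-Hochberg adjustment over all 20251 genes tested. PBS replicate 6 was left out; all 6 mice were an alternative. Single genes were also compared by exact two-sided permutation tests on mean log2(FPKM + 0.1). Alternatives were upper-quartile scaling, no filter, DESeq2 1.42.0, limma 3.58.1 on log2(FPKM + 0.1) and log2(FPKM + 1), the replicate number as a block, FLX replicates 1 and 2 alone, and each mouse left out. Tested on simulated counts for PBS versus Ctrl (19654 genes), the model called 57.6% of genes changed 2-fold and 84.5% of genes changed 4-fold.

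The genes described one by one were the members called in any comparison over 5 or 6 PBS mice, those whose groups did not overlap, and the 2 with the highest Ctrl level in each family. Other genes were named from lists of pathways and cell type markers. Members and lists were chosen with earlier results of these data known. Promoter windows came from RefSeq, and 5 members had none in the table (Gsta4, Gstt2, Sult4a1, Ugt1a6b and Ugt3a2).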

Additional observations from a re-analysis of the deposited data

Results flagged for a closer look

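For each of the 22 members described singly, the highest and lowest mouse of each group were compared with the rest of the group by Dixon's test, over all 6 PBS mice. In 10 of the 66 groups the extreme mouse stood apart, where chance alone marks about 1 in 20 groups, and 5 of the 10 were PBS replicate 6. In that mouse Gsta3 (50.05 FPKM), Gstp1 (243.6), Gstt2 (54.16) and Mgst1 (183.8) stood above the other PBS mice and Ugt2b38 (106.2) stood below them. Gstm5 stood low in Ctrl replicate 3 (66.55 FPKM) and in FLX replicate 6 (98.01). Sult1d1 stood low in FLX replicate 5 (187.4 FPKM), and that mouse also had the highest Adipoq of the FLX group. Ugt1a9 stood high in FLX replicate 6 (2.091 FPKM), and Ugt3a2 stood high in Ctrl replicate 5 (424.4 FPKM).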

How the results depend on the processing

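No call changed direction under any alternative; the median from Ctrl to FLX, -0.03, was 0.05 and 0.03 with limma on log2(FPKM + 0.1) and log2(FPKM + 1). Among values of single genes, 181 stayed on their side of the threshold, 56 lost a call and 3, each of Ugt1a6a, gained one. This tally followed only the members called over 5 or 6 PBS mice, in the comparison where they were called. Other members also gained calls under some alternatives, such as Gstz1 and Ugt1a2 from Ctrl to PBS with limma. Gstt2 and Ugt1a10 from Ctrl to PBS passed under every alternative in which they were tested as single genes. The count of members called from Ctrl to PBS, 6, ranged from 2 to 8 with 1 mouse left out: it was 2 without Ctrl replicate 1, 4 or 5, 3 without PBS replicate 1 or 4, and 8 without Ctrl replicate 3. It was 7 with all 6 PBS mice, 5 with upper-quartile scaling, 4 without the filter and 6 with DESeq2. From PBS to FLX the count of 1 ranged from 0 to 2 with 1 mouse left out. It was 0 without the filter, with limma on log2(FPKM + 0.1), with FLX replicates 1 and 2 alone, and without the mice highest in Adipoq, PBS replicate 5 and FLX replicate 5, which was chosen after seeing the data, and it was 4 with DESeq2. With limma on log2(FPKM + 1) the count stayed at 1, with Ugt1a2 called in place of Gsta2, and the median from PBS to FLX, -0.20, was -0.056. From Ctrl to FLX the count of 1 ranged from 1 to 4 with 1 mouse left out, and was 4 without Ctrl replicate 3, 2 with DESeq2, as Sult1a1 was added, and 0 with FLX replicates 1 and 2 alone. The cause was not tested. Ugt1a counts summed to 1 row, added after seeing the data, left 4 calls from Ctrl to PBS. Shares over all genes were taken only for edgeR over 5 and over all 6 PBS mice, so the counts under the other alternatives have no background beside them.

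No pairing of mice by replicate number was seen in the expression values. Of 16 pairs of mice with the same number, 2 had a correlation over 0.1 (range -0.205 to 0.227), and 4 of 17 mice matched best with a mouse of their own number. The labels do not say what the number stands for, and weak correlations cannot exclude a pairing in the design. With the replicate number as a block, 4 members were called from Ctrl to PBS, without Sult1a1 (adjusted p = 0.0626 from edgeR) and Ugt1a9 (0.0862), 1 from PBS to FLX and 1 from Ctrl to FLX.

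Counts are estimates that share reads among genes with common sequence, foremost the Ugt1a genes, Gsta1 and Gsta2, and Gstp1 and Gstp2. FLX replicates 3 to 6 had lower totals than the other mice, and sets of 5 or 6 mice limit what was detectable for genes under 1 FPKM.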

Other observations

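Members that no rule named and that lay outside the calls varied most where their levels were low or their reads shared. Gsta1, an alpha-class transferase, had 4.33 to 9.91 FPKM in Ctrl mice and a log2 fold change of 0.72 from Ctrl to PBS (standard error, SE, of 0.47, adjusted p = 0.461 from edgeR), or 1.41 over all 6 PBS mice. Gsto1, an omega-class transferase, had a log2 fold change of 0.44 from Ctrl to PBS (SE 0.16, adjusted p = 0.137 from edgeR), and Gstz1, which also isomerizes an intermediate of tyrosine breakdown, had -0.35 (SE 0.10, adjusted p = 0.0655). Among the alternatives, Gstz1 was called lower in that comparison with DESeq2, both limma scales and upper-quartile scaling, and without Ctrl replicate 3. Gsto1 was called higher without Ctrl replicate 6. Gsta4, which clears the lipid aldehyde hydroxynonenal, had 0.58 (SE 0.22, adjusted p = 0.170) from Ctrl to PBS, 1.003 over all 6 PBS mice (SE 0.31, adjusted p = 0.0701), and 0.42 (SE 0.21, adjusted p = 0.280) from Ctrl to FLX. Gsta1, Gsto1, Gstz1 and Gsta4 were chosen after their values were seen.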
